A study of Mus musculus with 6 samples.

Results

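Macrophages with abundant Pf4 RNA were examined in brain tumors formed by SB28, a glioma cell line, in mice. All leukocytes of these tumors had been collected through CD45, a protein on their surface. A cell was a member when it held at least 5 unique molecular identifiers (UMIs, each a counted RNA molecule) of Pf4 and at least 5 of C1qa, C1qb and C1qc together. It also had to hold at most 4 UMIs of P2ry12, Tmem119, Sparc and Olfml3 together (microglial genes), at most 2 of Mmp12 and under 0.5% of its UMIs from S100a8 and S100a9 (neutrophil genes). Cells needed 200 or more detected genes and no more than 10% of their UMIs from mitochondrial genes. This rule found 1972 members, 994 in CD45+ tumor sample 1 and 978 in CD45+ tumor sample 2, of 18269 barcodes in these 2 libraries and 37490 in all 6 libraries. The counts of these genes chose the members, so the levels of the genes named in the rule are given as descriptions with no test.

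The 6 libraries came from mice examined on day 18 after 10000 SB28 cells had been injected, and 20000 cells were loaded per lane. The CD45+ tumor libraries held unselected leukocytes. The other groups were neutrophils sorted by flow cytometry from tumor and from blood, with 2 libraries each. No untreated or tumor-free brain is part of the libraries analysed here, and the labels give neither strain, age nor sex. SB28 is a single cell line, and the labels do not say whether the numbered samples came from separate mice, so the p-values measure no more than how far these samples vary, and that variation may be technical.

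Pf4, also called Cxcl4, is a CXC chemokine best known as a granule protein of platelets and megakaryocytes, and it is also transcribed in subsets of tissue macrophages. C1qa, C1qb and C1qc encode the chains of C1q, the recognition molecule of the classical complement pathway, which resident microglia and many tumor macrophages make. In brain tumors, macrophages derived from blood monocytes stand beside resident microglia and the border macrophages of vessels and meninges, and these populations share many genes. In the mouse genome Pf4 lies in a cluster of CXC chemokine genes.

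That cluster lies on the plus strand of chromosome 5 (mm10, GENCODE vM21). Cxcl5 occupies 90759360 to 90761624, Ppbp 90768518 to 90770063, Pf4 90772435 to 90773383 and Cxcl3 90786103 to 90789600. Cxcl15 (90794534 to 90803067), Cxcl1 (90891241 to 90893115) and Cxcl2 (90903871 to 90905938) follow on the same strand. Ccl24 lies on the same chromosome, at 135569937 to 135573049 on the minus strand. The 250 bases upstream of Ppbp, Pf4 and Cxcl3, the neighbours described together below, are shown from the RefSeq annotation of GRCm38.p6, 5′ to 3′ on the plus strand. They are chr5:90768268-90768517, chr5:90772185-90772434 and chr5:90785851-90786100. Capitals mark the letters AGGAAG on either strand, a core of ETS-family binding motifs:
Ppbp: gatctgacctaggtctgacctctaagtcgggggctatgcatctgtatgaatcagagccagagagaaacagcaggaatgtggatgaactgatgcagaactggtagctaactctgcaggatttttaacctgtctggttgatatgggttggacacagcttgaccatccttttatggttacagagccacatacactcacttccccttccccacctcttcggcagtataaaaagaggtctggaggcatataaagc
Pf4: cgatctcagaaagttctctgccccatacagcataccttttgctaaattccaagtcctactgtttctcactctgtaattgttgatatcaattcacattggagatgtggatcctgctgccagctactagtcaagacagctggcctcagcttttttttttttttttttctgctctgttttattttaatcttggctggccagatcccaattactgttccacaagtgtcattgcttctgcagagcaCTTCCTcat
Cxcl3: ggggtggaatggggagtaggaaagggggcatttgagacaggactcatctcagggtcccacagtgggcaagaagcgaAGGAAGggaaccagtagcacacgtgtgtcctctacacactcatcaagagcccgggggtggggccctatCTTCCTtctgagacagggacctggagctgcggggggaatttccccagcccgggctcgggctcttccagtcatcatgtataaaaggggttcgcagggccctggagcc
AGGAAG stood 1 time upstream of Pf4, 2 times upstream of Cxcl3 and 0 times upstream of Ppbp, and it is found on either strand in 29.2% of 27025 RefSeq promoters of the same length. GATAA, a core of GATA-factor motifs, and TGCTGA, the core of MAF motifs, matched none of the 3 windows on either strand; they are found in 23.0% and 15.8% of all promoters. TGANTCA, the AP-1 motif, matched 1 time upstream of Ppbp (6.87% of promoters). TATAAA matched 2 times upstream of Ppbp and 1 time upstream of Cxcl3 (3504 of 27025 promoters). None of these motifs overlapped AGGAAG, and a match describes letters only.

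The members were 11.5% of the cells of CD45+ tumor sample 1 below the S100a8 and S100a9 limit (994 of 8659, exact 95% interval 10.8 to 12.2%) and 12.5% in sample 2 (978 of 7800, 11.8 to 13.3%). In the sorted tumor neutrophil libraries, 4 and 19 cells passed the same rule, 0.0966% and 0.289% of the kept cells. In the blood neutrophil libraries 1 and 2 cells passed, 0.0321% and 0.0377%. These intervals cover counting error only.

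CD45+ tumor samples 1 and 2 held 9418 and 8851 barcodes with 82077047 and 129422458 UMIs, and the other 4 libraries between 13945799 and 32628481 UMIs. CD45+ tumor sample 1 and sorted tumor sample 2 shared 162 cell barcodes, against 3 to 35 for every other pair of libraries. Among the members, 13 and 14 carried a barcode found in another library. The summed counts of sample 1 and sample 2 members were further apart than counting noise, with a ratio of chi-square to degrees of freedom of 27.24 over 14809 genes, so they were not counted as 1 sample. The automatic doublet call of Scrublet marked 0 cells. When the 700 and 607 highest scores were removed instead, 75 and 78 members went with them, 7.55% and 7.98% of the members.

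The rule asks for a minimum number of UMIs, so it favours deeply read cells. Members had a median of 12622.5 and 17738.5 UMIs in samples 1 and 2, and the other cells below the neutrophil limit had 6470 and 11962. Cells under 2000 UMIs held 1.53% and 1.15% members. The share peaked at 25.3% in sample 1 and 18.3% in sample 2, and it was 20.0% and 13.8% among cells of 40000 UMIs or more. Shallow cells of the same kind can be missed by the rule, and comparisons limited to a common depth range were run beside each test.

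**Figure D1:**
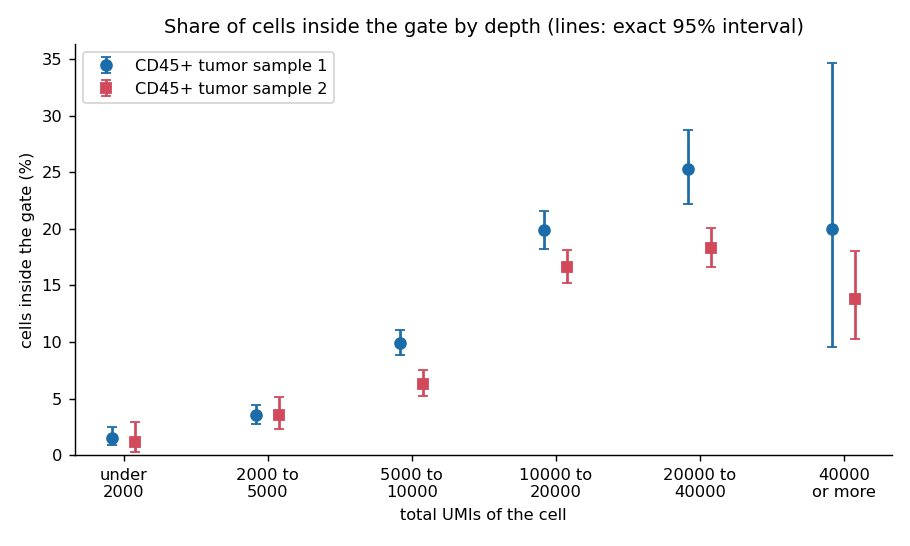
Share of members (vertical axis, percent of cells below the S100a8 and S100a9 limit, with exact 95% intervals) against total UMIs per cell in bins (horizontal axis), for both CD45+ tumor libraries. The share was lowest below 2000 UMIs, at 1.53% and 1.15%, and peaked at 25.3% and 18.3% before the deepest bin.

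The working description of these cells, Pf4-positive and rich in C1q, was checked against the marker levels, given as CPM (UMI counts scaled to a common library total). Pf4 stood at 3663 and 3750 CPM in members of samples 1 and 2, against 794 and 935 CPM in the other cells of the same libraries. C1qa stood at 2507 and 2006 CPM in members and at 1672 and 1902 CPM in the other cells, so it was little above the other cells in sample 2. Microglia-gated cells were chosen by at least 10 UMIs of the microglial genes and, like members, at least 5 of the C1q genes together. They held more C1qa than members in both libraries, with 6425 and 7060 CPM. The members were C1q-expressing but not the richest in C1q, and they are called Pf4-positive macrophages here.

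Of the other markers, Apoe, a lipid carrier, was abundant everywhere in the macrophages, with 17558 and 19640.1 CPM in members and 11136 and 12359 CPM in the other cells. Mrc1, the mannose receptor, stood at 435 and 480 CPM in members and 220 and 260 CPM in the other cells. Mmp12-gated macrophages held Mrc1 at a similar level, 457 and 387 CPM. Ccl24, the chemokine eotaxin-2, stood at 370 and 323 CPM in members and 122 and 87.5 CPM in the other cells. Csf1r, the receptor for the macrophage growth factor CSF1, was detected in 912 of 994 and 910 of 978 members.

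The 22 border macrophage genes listed summed to 4655 and 4498 CPM in members and 3141 and 3017 CPM in the other cells, with F13a1 at 1351 and 1215 CPM and Stab1 at 199 and 162 CPM in members. These levels were not particular to members. Monocyte-gated cells (at least 3 Ly6c2 UMIs) held F13a1 at 1245 and 1297 CPM, and microglia-gated cells held Stab1 at 197 and 212 CPM. Other genes of the list were near 0. Lyve1, a hyaluronan receptor, gave 3 and 14 UMIs in all members together, 0.215 and 0.725 CPM, and Cd163, the haemoglobin-haptoglobin receptor, 1.29 and 2.59 CPM. Folr2, a folate receptor, stood at 10.8 and 8.86 CPM and was seen in 90 and 84 members, with 9.19 and 12.2 CPM in microglia-gated cells. Cd209f stood at 0 CPM in members of both libraries. The members thus held some genes of the list at a high level and others at a low one.

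Marker lists of other cell types went in both directions. The 15 monocyte genes summed to 17876 and 22055 CPM in members and 14727 and 17294 CPM in the other cells. Abundant genes weigh most in such a sum. In the test against the other cells given below, 4 monocyte genes rose and 7 fell, with a median log2 difference of -0.13. The 8 fibroblast and pericyte markers summed to 6.46 and 6.47 CPM in members and to 4.998 and 5.241 CPM in the other cells. The 12 T and NK cell markers summed to 76.4 and 55.5 CPM in members, against 239 and 149 CPM in the other cells. The 12 neutrophil markers summed to 886 and 905 CPM in members and 1317 and 1290 CPM in the other cells, and the 12 dendritic cell markers to 297 and 378 CPM and to 528 and 584 CPM. The platelet markers other than Ppbp summed to 16.1 and 11.4 CPM in members and 27.2 and 14.3 CPM in the other cells. Gp9, part of the platelet von Willebrand receptor, gave 0 and 1 UMI in members, and its partners Gp1ba and Gp1bb gave 0 UMIs in both libraries.

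**Figure D2:**
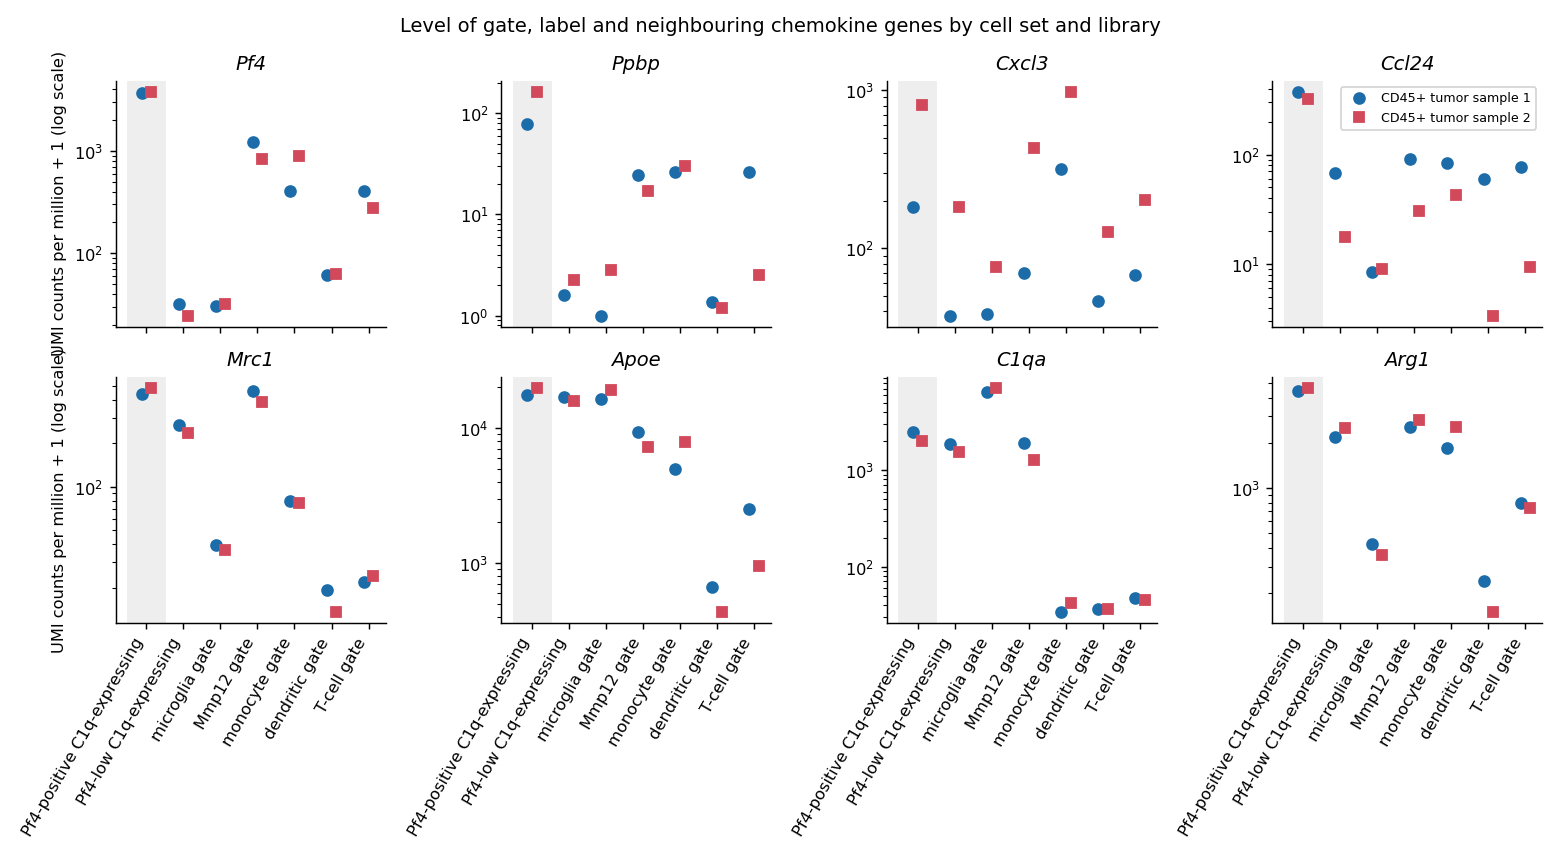
Level of 8 genes (CPM + 1, log axis) in members, shaded, and in 6 other gated cell sets, with 1 point for each CD45+ tumor library. Pf4, Ppbp, Ccl24 and Arg1 were highest in members in both libraries, while C1qa was higher in microglia-gated cells, Mrc1 was similar in Mmp12-gated cells, Apoe was also high in Pf4-low and microglia-gated cells and Cxcl3 was higher in monocyte-gated cells.

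Pf4 varied widely among members, although all held at least 5 UMIs. Its median was 24 UMIs per cell in sample 1 and 30 in sample 2, with highest values of 509 and 934. Just inside the limit, cells with 5 or 6 Pf4 UMIs (127 and 121 cells) held Mrc1 at 287 and 315 CPM, Arg1 at 3471 and 3390 CPM and Ccl24 at 172 and 36.2 CPM. Just outside, cells with 3 or 4 Pf4 UMIs (216 and 243 cells) held Mrc1 at 258 and 319 CPM, Arg1 at 3133 and 3338 CPM and Ccl24 at 56.2 and 23.2 CPM. The limit cut through a continuous range of Pf4 levels, and cells on either side of it held similar Mrc1 and Arg1.

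Free RNA in the droplets gives some UMIs in cells that do not make a gene, so shares of cells were compared with T cells after each cell was thinned to 2000 UMIs. Pf4 was found in 89.5% and 84.4% of thinned members and in 11.4% and 9.22% of thinned T cells. Mrc1 was found in 42.5% and 41.8% of members and 2.19% and 3.55% of T cells, and Ccl24 in 18.3% and 16.7% of members and 3.07% and 1.42% of T cells. Ppbp was found in 5.93% and 7.91% of members and in 1.32% and 0% of T cells. Mrc1, Ccl24 and Ppbp were thus found more often in members than in T cells of the same library, and the difference in Pf4 follows from the rule. The T cell gate allowed at most 4 UMIs of C1qa, C1qb and C1qc together. T cells with more of this RNA were thus left out, which can lower the T cell shares. The T cells had median depths of 5588 and 6877 UMIs before thinning. Too shallow to enter were 16 and 4 members and 6 and 1 T cells. Without thinning, 73.3% and 77.5% of members held Mrc1, 31.5% and 36.1% held Ccl24 and 11.8% and 16.3% held Ppbp.

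The closest comparison set passed every other part of the rule but held 0 or 1 Pf4 UMI: 1523 and 1022 Pf4-low C1q-expressing macrophages. Against these, members were higher in CXC and CC chemokine genes, in heme and iron genes and in several matrix genes, and lower in antigen presentation genes and interferon-response genes. UMIs were summed per library and cell set and tested with edgeR's quasi-likelihood test with the library as a block, with Benjamini-Hochberg adjustment over all genes. Of 13527 genes tested, 2107 were called at an adjusted p under 0.05, 15.6%, with 839 higher in members (6.20%) and 1268 lower (9.37%). Without the library block 0 genes were called by edgeR's quasi-likelihood test (1029 at an unadjusted p under 0.05), and DESeq2's Wald test with the block called 549. The tests rest on 2 libraries, with 1 residual degree of freedom per gene and a spread shared across genes. Members were also deeper than the Pf4-low cells, with median UMIs of 12622.5 and 17738.5 against 7566 and 12599; in cells of a common depth range 1840 genes were called, 1526 of them among the 2107.

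Among the chemokine ligands, 11 of 20 tested rose and 6 fell, with a median log2 difference of 0.48 against 0.00 over all genes tested. Ppbp, the neighbour of Pf4 and like it a platelet chemokine, stood at 76.0 and 169 CPM in members and at 0.561 and 1.26 CPM in Pf4-low cells. These Pf4-low levels rest on 8 and 19 UMIs. The log2 difference was 7.06 ± 0.16 (SE), an error that may be too small for such low counts. Within a single library, with more shrinkage of such low counts, it was 6.17 without sample 1 and 5.62 without sample 2. Cxcl3, a neutrophil attractant on the other side of Pf4, stood at 179 and 852 CPM in members and 34.8 and 184 CPM in Pf4-low cells (2.28 ± 0.09). Both genes were higher in members within each library. Cxcl3 was also higher in sample 2 than in sample 1 in both sets, so sample 1 members lay just below sample 2 Pf4-low cells. It was not highest in members: monocyte-gated cells (at least 3 Ly6c2 UMIs) held 318 and 971 CPM, and members 182 and 808 CPM on the same unscaled totals. Cxcl1 and Cxcl2, farther along the cluster, differed by 0.50 ± 0.09 and 0.50 ± 0.11. Both were called higher, but Cxcl1 stood at 65.5 and 117 CPM in members and 32.4 and 109 CPM in Pf4-low cells, and its difference was 0.05 without sample 1 and 0.94 without sample 2.

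The monocyte attractants also rose. Ccl7 stood at 215 and 321 CPM in members and 45.1 and 72.9 CPM in Pf4-low cells (log2 difference 2.19 ± 0.09), and Ccl2 at 235 and 805 CPM and at 97.5 and 288 CPM (1.38 ± 0.09). Ccl12 rose by 1.20 ± 0.09 and Ccl9 by 0.93 ± 0.09. On unscaled totals, Ccl2 was higher in monocyte-gated cells (350 and 1085 CPM) than in members (238 and 764 CPM). Ccl7 stood at 189 and 346 CPM in monocyte-gated cells and 218 and 305 CPM in members, so it was not highest in members of both libraries. Ligands of T cell and dendritic cell traffic went the other way. Ccl17, a ligand of Ccr4, stood at 18.1 and 9.28 CPM in members and 60.8 and 91.8 CPM in Pf4-low cells, a log2 difference of -2.51 ± 0.10. Without sample 1 the Ccl17 difference was -3.22 and without sample 2 it was -1.75. Ccl5, an attractant of T cells, stood at 31.9 and 63.6 CPM in members and 123 and 110 CPM in Pf4-low cells (-1.33 ± 0.09; -0.82 without sample 1 and -1.97 without sample 2). T and NK cell markers fell for 8 of 11 genes tested and rose for 0, and summed to 76.4 and 55.5 CPM in members and 140 and 82.5 CPM in Pf4-low cells; their part in the Ccl5 difference was not tested. Among the 4 ligands given in CPM in this paragraph, members and Pf4-low cells did not overlap for Ccl7, Ccl17 and Ccl5. For Ccl2, sample 1 members lay below sample 2 Pf4-low cells.

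Of 14 iron and heme genes tested, 8 rose and 0 fell, with a median of 0.53. Hmox1, the enzyme that degrades heme, stood at 845 and 921 CPM in members and 229 and 227 CPM in Pf4-low cells (log2 difference 1.95 ± 0.09). Blvrb, a biliverdin reductase, rose by 0.81 ± 0.09. Ftl1, the ferritin light chain, rose by 0.66 ± 0.12, though reads of this gene may be shared with near-identical copies. The 7 erythroid markers, a source of heme, summed to 9.69 and 0.673 CPM in members and 2.95 and 1.24 CPM in Pf4-low cells, so they were near 0 and higher in members of sample 1 only. Slc40a1, the iron exporter ferroportin, was low, at 7.93 and 6.99 CPM in members and 4.77 and 4.32 CPM in Pf4-low cells, and rose by 0.71 ± 0.20.

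Of 18 border macrophage genes tested, 13 rose and 1 fell, with a median of 0.59. F13a1, the coagulation factor XIII A chain made by monocytes and macrophages, stood at 1332 and 1280 CPM in members and 541 and 423 CPM in Pf4-low cells (1.45 ± 0.10). Stab1, a scavenger receptor, stood at 196 and 171 CPM and at 84.0 and 66.6 CPM (1.29 ± 0.09), and the transcription factor Maf at 255 and 254 CPM and at 102 and 84.8 CPM (1.45 ± 0.09). Folr2 differed by 3.09 ± 0.25 and Cd163 by 2.25 ± 0.48, but from the low levels given above. Within single libraries Folr2 differed by 2.14 without sample 1 and 2.48 without sample 2, and Cd163 by 1.37 and 0.67. F13a1, Stab1 and Maf, which monocyte-derived macrophages also express, carried most of the RNA among these examples.

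Among the largest rises were also Cd36, a scavenger receptor for oxidised lipids (1.74 ± 0.10), Ms4a4a, a macrophage surface protein (1.49 ± 0.10), the transcription factor Sox4 (1.37 ± 0.09), and Psd3 (1.43 ± 0.09) and Itsn1 (1.33 ± 0.10), which act in vesicle and endosome traffic. Of 16 matrix and protease genes tested, 9 rose and 0 fell. Mmp9, a gelatinase, stood at 63.7 and 26.7 CPM in members and 4.56 and 2.79 CPM in Pf4-low cells (3.59 ± 0.14; 2.82 without sample 1). Its RNA was concentrated in few cells: 103 and 80 members held any, and the 10 highest cells held 57.6% and 56.5% of its UMIs. Of 20 lysosome genes 9 rose and 0 fell, with Ctsl, cathepsin L, at 1111 and 1622 CPM in members and 559 and 758 CPM in Pf4-low cells (1.04 ± 0.10). Arg1, arginase, stood at 4370 and 4869 CPM in members and 2079 and 2542 CPM in Pf4-low cells (1.00 ± 0.11). Spp1, osteopontin, rose by 0.69 ± 0.11 and Fabp5, a fatty acid binding protein, by 0.77 ± 0.09 (1.12 without sample 1 and 0.32 without sample 2).

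Antigen presentation genes fell: of 13 MHC class II pathway genes 0 rose and 11 fell, with a median of -1.39. H2-Ab1 stood at 213 and 200.4 CPM in members and 886 and 714 CPM in Pf4-low cells (-1.95 ± 0.09), and H2-Aa at 141 and 166 CPM and at 621 and 599 CPM (-1.99 ± 0.09). Cd74, the invariant chain, stood at 662 and 546 CPM and at 2299 and 1684 CPM (-1.71 ± 0.10), and Ciita, the class II transactivator, differed by -1.90 ± 0.16. No library of members reached the level of either Pf4-low library for these 4 genes. Dendritic cell markers fell for 8 of 10 genes tested and rose for 0, and they summed to 297 and 378 CPM in members and to 389 and 445 CPM in Pf4-low cells. The part of dendritic cells among the Pf4-low cells in the class II difference was not tested.

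Of 17 interferon-response genes tested, 0 rose and 11 fell, with a median of -0.41. Ifit2 differed by -0.78 ± 0.11, Isg15, a ubiquitin-like protein, by -0.59 ± 0.09 and Irf7, a transcription factor, by -0.50 ± 0.09. The Ifit2 difference was -0.28 without sample 1 and -1.36 without sample 2. Ifit1 did not pass, with 12.7 and 17.1 CPM in members and 18.2 and 15.3 CPM in Pf4-low cells. Of 15 monocyte genes 2 rose and 7 fell. Ly6c2, the surface marker of inflammatory monocytes, stood at 55.4 and 64.7 CPM in members and 163 and 149 CPM in Pf4-low cells (-1.37 ± 0.09), and Plac8 differed by -1.19 ± 0.09 and the chemokine receptor Ccr2 by -0.85 ± 0.09. The remaining large falls were Spink2, a serine protease inhibitor (-1.37 ± 0.10), Tnip3, an inhibitor of NF-kB signalling (-1.20 ± 0.09), and the neutrophil-associated Lcn2 (-1.12 ± 0.09) and Serpinb1a (-1.12 ± 0.10).

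Other groups were split or had small median differences. Of 15 genes of alternative activation 4 rose and 8 fell, with Chil3, a chitinase-like protein, at -0.67 ± 0.10 beside the rise of Arg1. Of 13 complement genes outside C1q 4 rose and 5 fell. C3ar1, the receptor for C3a, rose by 0.51 ± 0.08, and the components C3 and Cfb fell by 0.59 and 0.83 on the log2 scale (C3 differed by -0.23 without sample 1 and -1.02 without sample 2). Of 21 lipid genes 7 rose and 5 fell, with Abca1, a cholesterol exporter, at 0.55 ± 0.09 and Lpl, lipoprotein lipase, at -0.52 ± 0.10. Of 20 hypoxia and glycolysis genes 9 rose and 1 fell, with a median of 0.21. Of 16 cell cycle genes 5 rose and 0 fell, but the proliferation marker Mki67 did not pass, with 67.8 and 57.3 CPM in members and 66.4 and 65.0 CPM in Pf4-low cells (-0.08 ± 0.09). Trem2, a lipid-sensing receptor of phagocytes, did not pass either, with a difference of 0.09 ± 0.09.

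**Figure D3:**
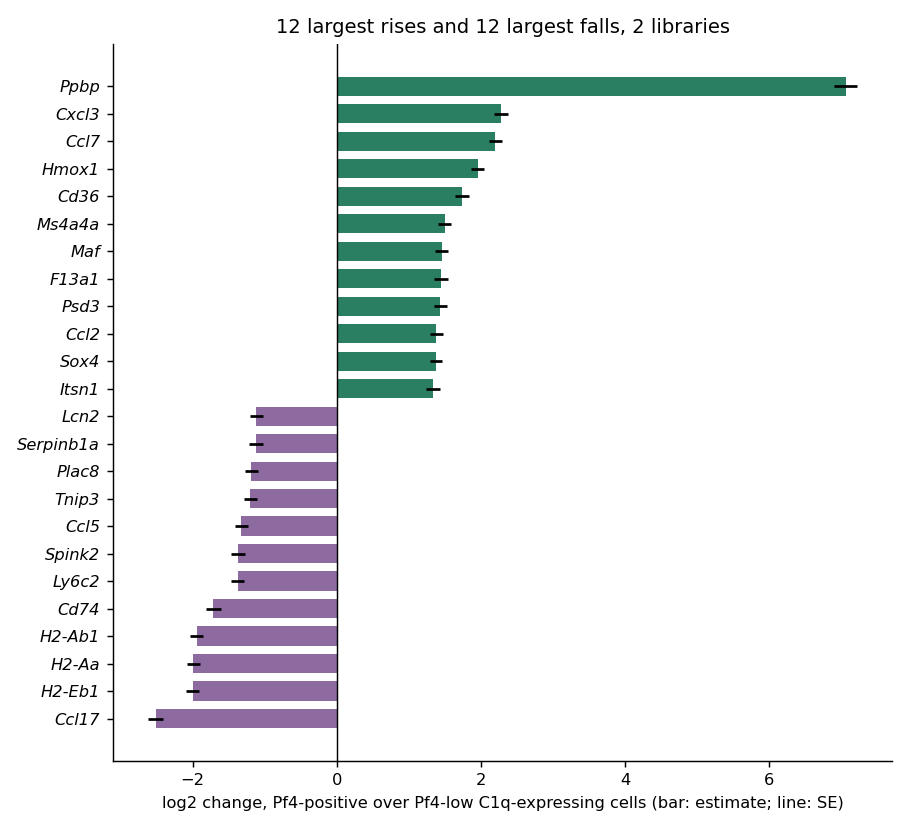
Log2 difference of members over Pf4-low C1q-expressing macrophages (horizontal axis; bars are estimates over 2 libraries and lines the SE) for the 12 genes with the largest rises and the 12 with the largest falls. Ppbp led the rises at 7.06, and Ccl17 led the falls at -2.51 ahead of the class II genes.

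Set against all other cells below the neutrophil limit, 4625 of 16061 genes were called by edgeR's quasi-likelihood test (28.8%), 2089 higher in members and 2536 lower (15.8%). This set mixes microglia, monocytes, lymphocytes, dendritic cells and other macrophages, among them Pf4-positive cells that failed another limit. Without the library block 0 genes were called (2254 at an unadjusted p under 0.05), and DESeq2's Wald test called 2003. Iron and heme genes rose for 10 of 14 tested and fell for 1, and lysosome genes rose for 13 of 20 and fell for 0. MHC class II genes fell for 12 of 13 and interferon-response genes for 14 of 17, and 0 of either list rose. Hmox1 stood at 860 and 931 CPM in members and 346 and 398 CPM in the other cells (log2 difference 1.27 ± 0.09), and Arg1 at 4451 and 4918 CPM and at 2099 and 2594 CPM (1.00 ± 0.11). Ms4a7, a macrophage surface protein, differed by 1.02 ± 0.08 and H2-Aa differed by -2.23 ± 0.09. Ppbp stood at 77.4 and 170 CPM in members and 16.1 and 32.6 CPM in the other cells (2.33 ± 0.08).

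Microglia-gated cells of the same libraries (335 and 633 cells) differed from members in 6905 of 13592 genes (50.8%; 25.7% higher and 25.1% lower in members), by edgeR's quasi-likelihood test. Without the library block 3122 genes were called, and DESeq2's Wald test called 3788. The microglial list fell in 14 of 14 genes tested outside the rule, and the choice of cells by P2ry12, Tmem119, Sparc and Olfml3 bears on that count. Hypoxia and glycolysis genes rose for 17 of 20 and fell for 1, with a median of 1.27, and monocyte genes rose for 12 of 14 and fell for 1, with a median of 1.74. Arg1 stood at 4504 and 5013 CPM in members and 383 and 358 CPM in microglia-gated cells (3.68 ± 0.15). F13a1 stood at 1373 and 1318 CPM and at 154 and 122 CPM (3.30 ± 0.13), and Vegfa, an angiogenic growth factor, at 258 and 436 CPM and at 62.1 and 56.9 CPM (2.53 ± 0.14; 1.88 without sample 2).

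The monocyte genes included Vcan, a proteoglycan (2.64 ± 0.12), Lyz2, lysozyme (2.51 ± 0.17), and Ccr2 (1.71 ± 0.11). Matrix genes rose for 11 of 16 and fell for 4, with Mmp14 at 1.63 ± 0.12 and Mmp19 at 2.74 ± 0.14 (2.06 without sample 2). Of 20 lysosome genes 3 rose and 14 fell, where 9 had risen and 0 fallen against the Pf4-low cells. Ctss, cathepsin S, stood at 2216 and 2727 CPM in members and 3487 and 4687 CPM in microglia-gated cells (-0.72 ± 0.14). Ccl3 and Ccl4, inflammatory chemokines, differed by -1.79 ± 0.12 and -3.05 ± 0.13, and Csf1r by -1.68 ± 0.12.

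Members were then ranked by the share of Pf4 in their UMIs and cut into 4 equal bins per library (244 to 249 cells each), with levels given from the lowest to the highest bin as a description. Ppbp stood at 1.72, 5.08, 44.6 and 336 CPM in sample 1 and at 4.88, 22.9, 63.2 and 678 CPM in sample 2. Ccl24 stood at 107, 196, 401 and 1003 CPM in sample 1 and at 59.4, 197, 315 and 916 CPM in sample 2. Cxcl3 stood at 74.8, 154, 193 and 388 CPM and at 310, 621, 766 and 1897 CPM. These 3 chemokines climbed at every step in both libraries.

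Mmp9 followed the same order, with 9.22, 29.9, 75.8 and 190 CPM in sample 1 and 2.90, 15.0, 36.3 and 64.1 CPM in sample 2. Hmox1 was 430 CPM in the lowest bin and 1685 CPM in the highest in sample 1, and 244 and 1893 CPM in sample 2. Arg1 spanned less, from 3460 to 6464 CPM and from 3651 to 6645 CPM. H2-Ab1 had no steady order, with 346, 142, 213 and 84.0 CPM in sample 1 and 172, 262, 186 and 138 CPM in sample 2, lowest in the highest bin of both. Median depth was 17083 and 25288 UMIs in the lowest bin and 9979 and 14929 UMIs in the highest bin, and its part in these orders was not tested.

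**Figure D4:**
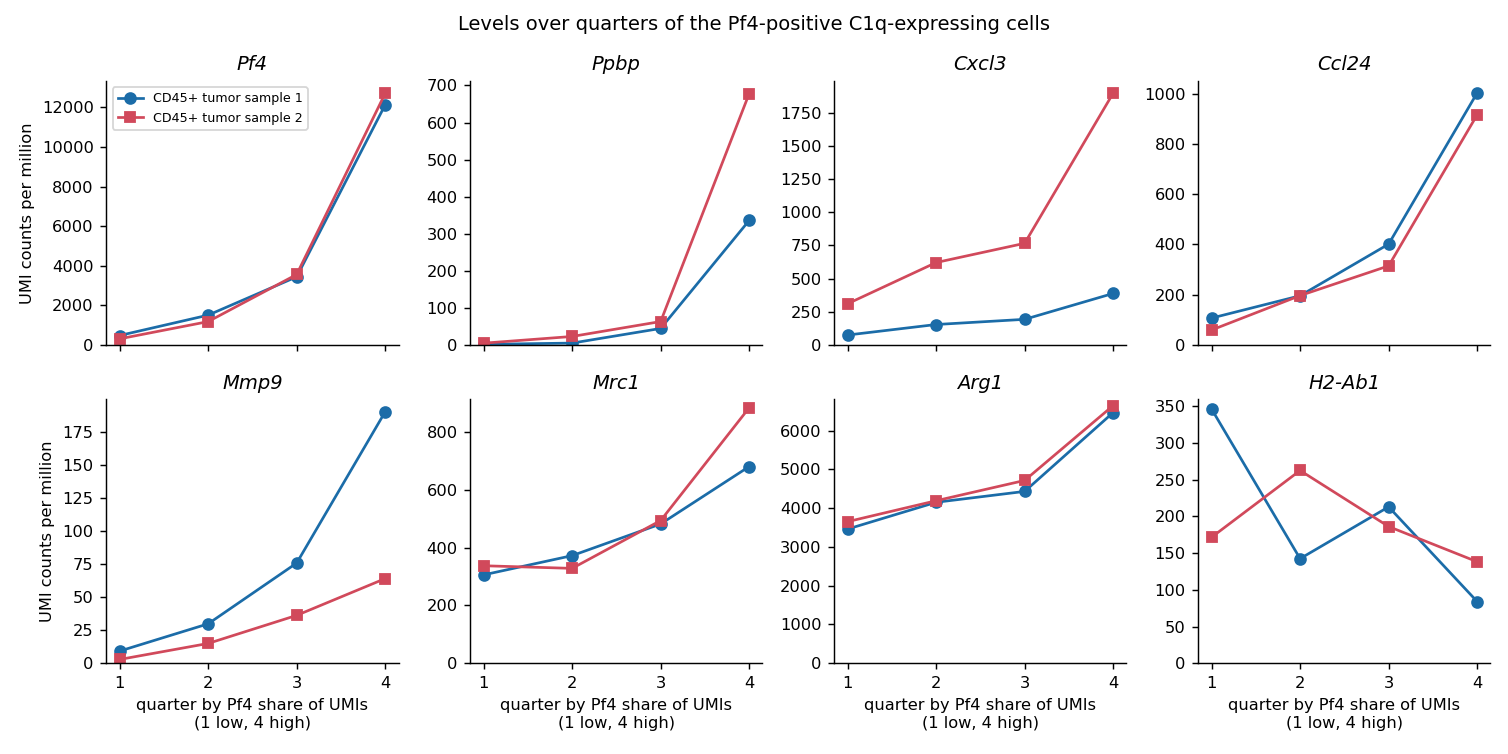
Level of 8 genes (CPM, linear axis from 0) in members cut into 4 bins by the share of Pf4 in their UMIs, lowest to highest, for both CD45+ tumor libraries. Ppbp spanned 1.72 to 336 CPM in sample 1 and 4.88 to 678 CPM in sample 2, and H2-Ab1 had no steady order.

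Over all cells below the neutrophil limit, thinned to 2000 UMIs (7613 and 7452 cells), the gene most like Pf4 among 4956 was Arg1, with a mean Spearman rho of 0.46 over both libraries. F13a1 (0.39), Ccl9 (0.36), Ctsl (0.35), Ftl1 (0.34), Lgals1 (0.33), Ccl24 (0.32), Spp1 (0.31), Ccl6 (0.30) and Cxcl3 (0.29) followed. These correlations are descriptions across cells that share libraries, depth and free RNA. H2-Aa (-0.21), H2-Eb1 (-0.20) and Cd74 (-0.19) were lowest.

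Ccl24 UMIs were unevenly spread over the members. They were seen in 313 and 353 cells, and the 10 highest cells held 24.03% and 30.81% of its UMIs. Ppbp was seen in 117 and 159 members, with 46.2% and 44.4% of its UMIs in the 10 highest cells. Of members with a Ccl24 UMI, 23.0% and 29.5% held Ppbp, against 6.61% and 8.80% of members without one. For Mmp9 the shares were 23.3% and 15.3% against 4.41% and 4.16%. Both genes were found more often beside Ccl24 in each library, in shares that were not thinned and that depth can raise.

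Ccl24-positive members (2 or more UMIs; 224 and 245 cells) were compared with Ccl24-negative members (0 UMIs; 681 and 625 cells), whose median depths were close, at 12819 and 17511 UMIs in positive and 12360 and 17726 UMIs in negative members. Ccl24-positive members were higher in Ppbp, Cxcl3, Mmp9 and other chemokine genes and lower in interferon-response genes. Of 12000 genes tested by edgeR's quasi-likelihood test, 230 were called (1.92%), 126 higher in positive members (1.05%) and 104 lower (0.867%). Without the library block 0 were called (471 at an unadjusted p under 0.05), and DESeq2's Wald test called 72, of which 75.0% were higher against 54.8% in edgeR. With barcodes shared between libraries left out 118 were called.

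Of 19 chemokine genes 9 rose and 4 fell in Ccl24-positive members. Mmp9 stood at 221 and 76.3 CPM in Ccl24-positive and 8.12 and 8.03 CPM in Ccl24-negative members (log2 difference 4.04 ± 0.24, adjusted p = 3.93e-06, edgeR's quasi-likelihood test). Ppbp stood at 248 and 482 CPM in positive and 17.7 and 29.9 CPM in negative members (3.92 ± 0.09), and Cxcl3 at 410 and 1563 CPM and at 90.1 and 472 CPM (1.93 ± 0.10). Inhba, a subunit of activin, differed by 1.31 ± 0.22, Thbd, the anticoagulant thrombomodulin, by 1.22 ± 0.11, Ccl2 by 0.98 ± 0.07, Spp1 by 0.80 ± 0.09 and Arg1 by 0.70 ± 0.08. The Inhba difference was 0.67 without sample 1 and 1.92 without sample 2, and it was not called when doublet-scored cells or shared barcodes were left out. The Mmp9 difference was 3.06 without sample 1. Each of these genes was higher in positive members within each library.

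Genes that fell in Ccl24-positive members included Ccl5, at 11.3 and 22.8 CPM in positive and 42.1 and 78.9 CPM in negative members (-1.83 ± 0.13), and Cxcl10, an interferon-induced T cell attractant (-1.23 ± 0.12). Of 10 T and NK cell markers tested 0 rose and 3 fell, and the 12 markers summed to 33.1 and 41.0 CPM in positive and 85.2 and 70.4 CPM in negative members; their part in the Ccl5 difference was not tested. Of 17 interferon-response genes 0 rose and 6 fell, among them Ifit1 (-1.36 ± 0.21), Ifit2 (-1.43 ± 0.21) and Ifit3 (-1.62 ± 0.23). Cx3cr1, the fractalkine receptor, differed by -1.01 ± 0.10 and Gpnmb, a lysosomal glycoprotein, by -0.97 ± 0.08. Hmox1 did not pass, with 862 and 1043 CPM in positive and 828 and 802 CPM in negative members (0.22 ± 0.09). As a description, Pf4 stood at 5626 and 7754 CPM in positive and 2814 and 2266 CPM in negative members.

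**Figure D5:**
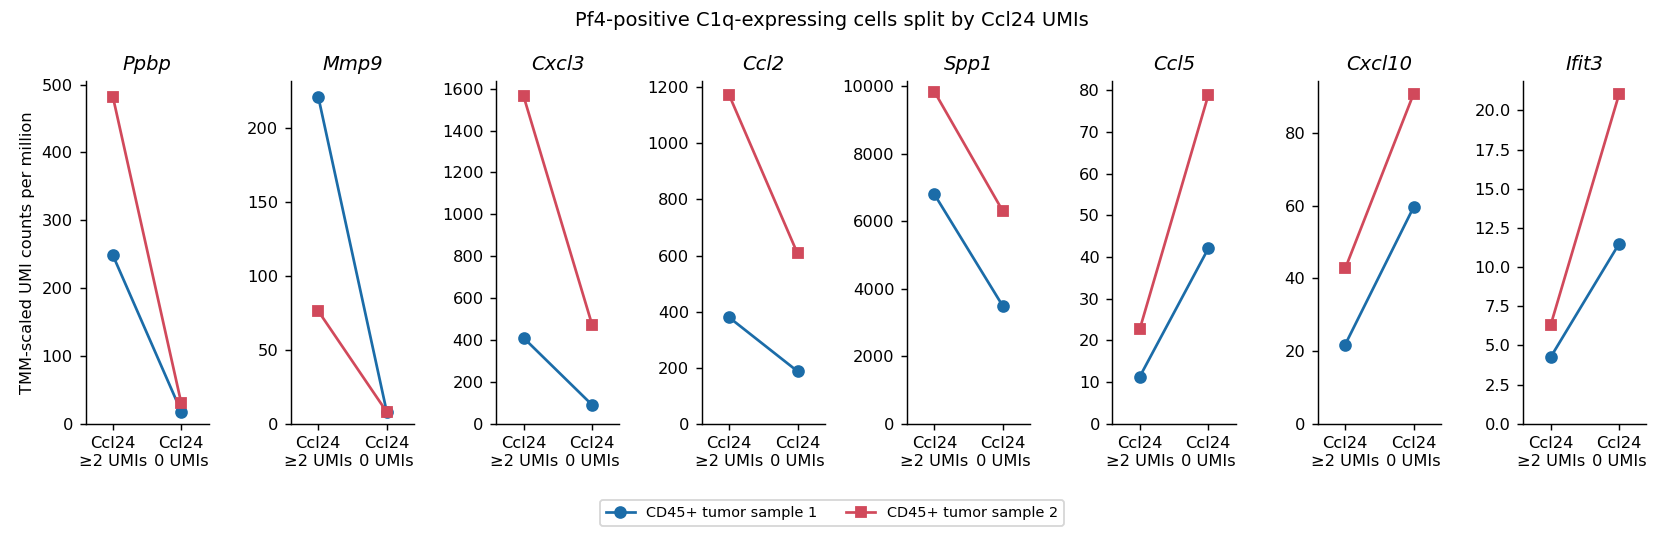
Levels of 8 genes (TMM-scaled CPM, linear axis from 0) in Ccl24-positive (left) and Ccl24-negative members (right), with 1 line for each CD45+ tumor library. Ppbp, Mmp9, Cxcl3, Ccl2 and Spp1 were higher in Ccl24-positive members in both libraries, and Ccl5, Cxcl10 and Ifit3 were lower.

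Members were also split by the summed UMI share of H2-Aa, H2-Ab1 and H2-Eb1, taking the top and the bottom 331 cells in sample 1 and 326 cells in sample 2. MHC-high members carried more of the class II machinery and of dendritic cell genes, and less Ppbp, Hmox1 and Cxcl3. Of 11339 genes tested by edgeR's quasi-likelihood test, 254 were called (2.24%), 144 higher in MHC-high members (1.27%) and 110 lower (0.970%). Without the library block 2 were called, and DESeq2's Wald test called 71, of which 43.7% were higher against 56.7% in edgeR. MHC-high members were deeper, with median UMIs of 12762 and 18655, against 9793 and 13807 in MHC-low members. The MHC-low members held 0 H2-Ab1 UMIs in both libraries, and 412 and 404 of all members held any. In MHC-low members H2-Ab1 was thus not detected, which low depth favours, and members with equal shares were kept in stored order.

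Of 10 class II pathway genes outside the split, 6 rose and 0 fell. Cd74 stood at 1759 and 1383 CPM in MHC-high and 106 and 71.9 CPM in MHC-low members (4.16 ± 0.07, adjusted p = 1.47e-09, edgeR's quasi-likelihood test). Il1r2, the decoy receptor for interleukin-1, stood at 408 and 434 CPM in MHC-high and 151 and 144 CPM in MHC-low members (1.52 ± 0.06). Ccl17 stood at 50.9 and 25.3 CPM in MHC-high and 1.58 and 0.801 CPM in MHC-low members (4.97 ± 0.25; 3.87 without sample 1 and 4.37 without sample 2). Of 9 dendritic cell genes 4 rose and 0 fell, among them Ccr7, the receptor that guides dendritic cells to lymph nodes (4.04 ± 0.47), and Flt3, a growth factor receptor of dendritic cells (2.83 ± 0.36). Without sample 2 these differences were 2.41 for Ccr7 and 1.82 for Flt3, and with the highest doublet scores removed Ccr7 differed by 2.61 and was not called. Ccr7 was low, at 17.9 and 23.7 CPM in MHC-high and 2.64 and 0.200 CPM in MHC-low members, and the 12 dendritic cell markers summed to 345 and 435 CPM in MHC-high and to 289 and 364 CPM in MHC-low members. The part of dendritic cells, or of doublets with them, in this split was not tested.

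On the other side, Ppbp stood at 30.1 and 82.2 CPM in MHC-high and 147 and 375 CPM in MHC-low members (-2.22 ± 0.07). Hmox1 stood at 686 and 704 CPM in MHC-high and 1216 and 1211 CPM in MHC-low members (-0.80 ± 0.05), and Cxcl3 at 136 and 815 CPM and at 262 and 1190 CPM (-0.70 ± 0.08). Iron and heme genes fell for 4 of 13 and lysosome genes for 5 of 20, and 0 of either list rose. As a description, Pf4 stood at 3027 and 3213 CPM in MHC-high and 4838 and 5165 CPM in MHC-low members, and Ccl24 at 294 and 187 CPM and at 547 and 576 CPM. In this split, Hmox1, Pf4 and Ccl24 were thus higher in the members low in class II genes. Those members were shallower, and the minimum of 5 Pf4 UMIs asks a higher Pf4 share of shallow cells. The part of depth in the Pf4 difference was not tested. In the Ccl24 split, 2 of 12 class II genes fell, 0 rose and Hmox1 did not pass.

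The 23 cells that passed the rule in the sorted tumor neutrophil libraries allowed only a coarse comparison. Members of the CD45+ libraries were set against them without a block, and 0 of 11554 genes were called by edgeR's quasi-likelihood test (0%; 793 at an unadjusted p under 0.05; 27 by DESeq2's Wald test). Arg1 stood at 4367 and 4818 CPM in CD45+ members and 4974 and 3591 CPM in the sorted cells, and Spp1 at 4453 and 7338 CPM and at 5321 and 6639 CPM, so the ranges overlapped for both. Ppbp stood at 75.9 and 167 CPM in CD45+ members and 0 and 32.6 CPM in the sorted cells. Of the 19 cells in sorted tumor sample 2, 5 carried a barcode also found in CD45+ tumor sample 1. The 4 and 19 cells limit the size of difference that this comparison can show.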

How the data were processed

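Gene expression in single cells was read from the 3′ end in 6 droplet libraries, per the labels. The authors deposited raw UMI counts for each gene and cell barcode, which were not normalized. They aligned to mm10 using Cell Ranger 7.1.0, according to the submitters' processing notes; the sources used here do not give their annotation. Mitochondrial, gate, label and split genes were left out of testing.

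The members, gene lists and most tests were chosen with earlier results of these data known. Counts were added up over the cells of a set in each library. edgeR 4.0.16 in R 4.3.3 then tested the sums with its quasi-likelihood test after TMM scaling and filterByExpr, calling genes at an adjusted p under 0.05 (Benjamini-Hochberg). The library was a block because both sums came from the same library; cells were not treated as replicates. DESeq2 1.42.0 was an alternative. Where a CPM stands beside a log2 difference its total was scaled by TMM; other CPM were not scaled. Errors beside log2 differences, called SE, are the absolute difference divided by the square root of the test's F statistic. As they use a spread shared across genes, they can be smaller than the gap between single libraries. Genes named were the 12 largest rises and falls per comparison with at least 50 CPM, list genes, and the 10 genes most correlated with Pf4. The gates of other cell types were simple UMI limits on cells below the S100a8 and S100a9 limit. T cells held at least 3 UMIs of Cd3e, Cd3d and Cd3g together. Dendritic cells held at least 2 of Flt3 and Zbtb46, and monocytes at least 3 of Ly6c2. These gates allowed at most 4 UMIs of C1qa, C1qb and C1qc together. Mmp12 macrophages held at least 3 UMIs of Mmp12 and at most 4 of the microglial genes. Microglia held at least 10 of the microglial genes, at most 4 of Pf4 and at most 2 of Mmp12. The Mmp12 and microglia gates asked for at least 5 UMIs of the C1q genes together. Shares carry exact Clopper-Pearson 95% intervals (scipy 1.17.1). Doublets were scored with Scrublet (scanpy 1.11.5), and up to 0.8% per 1000 cells were removed in an alternative. The tests were checked on simulated data. The depth range of the alternative was the 10th to 90th percentile of the first set. Promoter sequences came from RefSeq GRCm38.p6 and gene positions from GENCODE vM21.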

Additional observations from a re-analysis of the deposited data

How the results depend on the processing

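The alternatives gave 1059 values for 96 results (each a named gene in a comparison). Of these values 961 counted as the same, 96 lost the call and 2 gained it. The 961 include 93 values without sample 1 and 93 without sample 2 in the blocked comparisons. Those had no test and counted as the same unless a called gene changed sign. Among results that were called, 0 of 976 values changed sign. Among those that were not, 9 of 83 did, for Ifit1 and Trem2 against Pf4-low cells and for Arg1 and Spp1 against sorted cells. Of the losses, 77 came without the replicate block (library term) and 13 under DESeq2's Wald test. Without the block, 77 of 93 results thus lost the call and 16 stayed the same. These 96 results are genes printed in this text. The wider set of named and list genes held reversals of sign, for genes called in the main test or in the alternative. Against microglia-gated cells 11 genes reversed with doublets removed and 351 stayed the same. Judged by sign only, 6 reversed against other cells without sample 2 and 398 stayed the same. On the same basis, 4 reversed against Pf4-low cells without sample 1 and 369 stayed the same. There DESeq2's Wald test lost the call for 93 genes and left 265 the same. Without the replicate block, the count of called genes was 0 for members against other cells, 0 against Pf4-low cells, 3122 against microglia-gated cells, 0 for the Ccl24 split and 2 for the MHC split; with the replicate block, 23 were called for CD45+ against sorted cells. DESeq2's Wald test called 2003, 549, 3788, 72, 71 and 27 genes in the same order. Pf4 of 3 UMIs or more gave 1264 against Pf4-low cells and 696 in the MHC split; Pf4 of 10 or more gave 489 in the Ccl24 split and 535 in the MHC split. Without a filter on low counts the Ccl24 split gave 488, the MHC split 609 and the sorted comparison 138. The common depth range gave 593 in the Ccl24 split and 59 in the sorted comparison. Doublet removal gave 127 and leaving out shared barcodes, an alternative added after seeing the data, gave 118 in the Ccl24 split. Leaving out 1 library gave 0 to 11 in the sorted comparison; in the blocked comparisons 1 pair is then left, which gives values and no test. The cause of these changes was not tested. The mean share of members was 14.8% with Pf4 of 3 or more and 9.27% with 10 or more, and unthinned shares were 75.4% for Mrc1, 33.8% for Ccl24 and 14.1% for Ppbp, against 42.1%, 17.5% and 6.92% thinned. Fewer UMIs in other cells than in members limit the detection of low genes there.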
